A study of Mus musculus with 12 samples.

Results

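The set described here holds 34 mouse genes of glycolysis and of the response to low oxygen, chosen by name, measured in BV2 cells on one-colour Agilent arrays. It holds 17 glycolytic enzymes, 3 glucose and lactate transporters, 3 regulators of glycolysis, 10 other targets of hypoxia-inducible factor (HIF) and the HIF subunit gene Hif1a, out of 32665 genes and transcripts with a probe. Each gene was read from its brightest probe, matched through the probe's RefSeq accession. All 34 had a probe, and 32 could be tested, because 1 or more groups had all 3 of their arrays well above background, as was so for 19318 genes and transcripts in all. Those 32 were well above background on all 12 arrays. Left untested were Eno2 (well above background on 0 of 12 arrays) and Egln3 (on 7, never on all 3 of a group).

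BV2 is an immortalised mouse microglial cell line, a laboratory stand-in for the resident macrophages of the brain. The 4 groups of 3 arrays each were LPS+curcumin (100 ng/ml bacterial lipopolysaccharide and 20 µM of the plant polyphenol curcumin), LPS alone (100 ng/ml), curcumin alone (20 µM) and untreated cells, with treatments lasting 6 hours. All groups share the same line, and the labels name no vehicle for the untreated cells. The labels do not say that the 3 samples of a group came from separate cultures, so the p-values measure the spread between these samples, which may be technical.

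As background, cells take up glucose through carriers such as GLUT1 (Slc2a1), trap it with hexokinases, split it in the steps from phosphofructokinase to pyruvate kinase, and turn pyruvate to lactate, which leaves through monocarboxylate transporters. Activated macrophages and microglia are known to use this route more. When oxygen is low, or in LPS-stimulated myeloid cells, the HIF-1α protein escapes prolyl hydroxylases such as EGLN1, pairs with ARNT and activates genes whose promoters hold the letters ACGTG or GCGTG, the core of the hypoxia response element.

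Promoter sequences of 6 of the genes described below are shown because HIF is known to read the letters ACGTG. They come from RefSeq (GRCm38.p6) and run from 250 bases before to 50 after an annotated start, 5′ to 3′ on the gene's strand. Capitals mark ACGTG or its reverse complement CACGT. Slc2a1 lies at chr4:119108495-119108794 (+ strand), Hk2 at chr6:82774405-82774704 (- strand), and Pfkfb4 at chr9:108991652-108991951 (+ strand). Pfkfb3 has 2 starts on the - strand, an upstream one at chr2:11553880-11554179 and a downstream one at chr2:11502041-11502340. Ankrd37 lies at chr8:45999801-46000100 (- strand), and Pgk1, an enzyme gene shown for comparison, at chrX:106186850-106187149 (+ strand).
Slc2a1: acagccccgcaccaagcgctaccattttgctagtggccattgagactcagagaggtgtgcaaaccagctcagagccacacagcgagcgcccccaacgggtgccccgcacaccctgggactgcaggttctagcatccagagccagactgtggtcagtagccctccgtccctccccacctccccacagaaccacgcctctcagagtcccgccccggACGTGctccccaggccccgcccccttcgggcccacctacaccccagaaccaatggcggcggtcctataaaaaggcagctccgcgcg
Hk2: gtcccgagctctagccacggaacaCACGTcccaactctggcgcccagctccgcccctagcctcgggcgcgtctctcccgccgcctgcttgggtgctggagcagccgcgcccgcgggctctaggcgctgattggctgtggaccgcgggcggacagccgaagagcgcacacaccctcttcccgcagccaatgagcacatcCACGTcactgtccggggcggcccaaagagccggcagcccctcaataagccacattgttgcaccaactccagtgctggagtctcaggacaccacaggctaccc
Pfkfb4: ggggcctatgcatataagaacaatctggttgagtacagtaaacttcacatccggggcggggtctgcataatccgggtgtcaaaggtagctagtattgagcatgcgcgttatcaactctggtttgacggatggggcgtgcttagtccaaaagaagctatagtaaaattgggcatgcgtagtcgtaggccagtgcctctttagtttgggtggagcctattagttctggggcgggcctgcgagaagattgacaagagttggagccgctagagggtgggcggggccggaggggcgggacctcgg
Pfkfb3, upstream start: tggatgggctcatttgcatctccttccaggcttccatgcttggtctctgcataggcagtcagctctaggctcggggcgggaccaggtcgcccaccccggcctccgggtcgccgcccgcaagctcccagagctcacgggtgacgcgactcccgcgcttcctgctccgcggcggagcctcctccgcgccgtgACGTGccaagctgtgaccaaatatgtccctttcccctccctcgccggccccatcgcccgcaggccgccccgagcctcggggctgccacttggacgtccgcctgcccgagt
Pfkfb3, downstream start: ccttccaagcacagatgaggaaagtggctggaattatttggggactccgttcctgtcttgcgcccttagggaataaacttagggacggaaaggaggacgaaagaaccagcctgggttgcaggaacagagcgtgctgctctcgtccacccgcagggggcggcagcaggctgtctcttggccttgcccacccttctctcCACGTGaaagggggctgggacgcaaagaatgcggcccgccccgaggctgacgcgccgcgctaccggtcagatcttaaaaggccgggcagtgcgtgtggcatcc
Ankrd37: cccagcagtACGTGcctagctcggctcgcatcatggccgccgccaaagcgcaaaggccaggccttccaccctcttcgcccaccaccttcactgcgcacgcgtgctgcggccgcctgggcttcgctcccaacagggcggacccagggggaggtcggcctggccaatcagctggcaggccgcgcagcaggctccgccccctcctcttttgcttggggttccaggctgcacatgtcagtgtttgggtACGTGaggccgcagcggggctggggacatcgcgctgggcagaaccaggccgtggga
Pgk1: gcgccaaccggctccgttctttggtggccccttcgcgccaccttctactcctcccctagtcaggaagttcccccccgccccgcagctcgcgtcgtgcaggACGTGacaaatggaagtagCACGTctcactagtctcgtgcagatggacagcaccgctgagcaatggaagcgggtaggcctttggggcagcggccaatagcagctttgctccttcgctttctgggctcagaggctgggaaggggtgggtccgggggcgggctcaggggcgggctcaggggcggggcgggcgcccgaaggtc
In the Pfkfb4 window neither ACGTG nor CACGT was found, though it holds GCGTG, the other form of the core, which is not capitalised. In the downstream Pfkfb3 window ACGTG and CACGT overlap as CACGTG, the palindrome that E-box factors also read. The table held 48 promoters of 33 members and none of Ndrg1. ACGTG or GCGTG, on either strand, was found in 39 of the 48 (81.2%, exact binomial 95% interval 67.4 to 91.1, which covers counting error only), against 43.8% of all 32851 promoters of the same length. ACGTG alone was found in 28 of the 48 (58.3%), against 19.6% of all promoters, and CACGTG in 6 (12.5%), against 7.15%. Some genes have more than 1 start, so the 48 windows are not independent. The members were chosen partly as known HIF targets, and a match of letters is a description, not a site.

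Levels are log2 of the processed signal minus the array's own 75th percentile, unless another scale is named, so 1 unit is a 2-fold difference and levels of different probes cannot be set against each other. A gene is called where limma's adjusted p over all 19318 genes and transcripts is below 0.05, and errors of fold changes are standard errors from that fit. Of 13 microglia and macrophage markers with a probe, 11 were well above background on all 12 arrays, while Gfap, Aqp4, Aldh1l1 and Gja1, which define astrocytes, were so on none. Of 5 endothelial markers Cdh5 was on none and Kdr on all 12, and the summed level of that list was 1.59 to 5.44 on LPS+curcumin arrays, 4.76 to 5.26 on LPS arrays, 3.57 to 4.59 on curcumin arrays and 4.99 to 5.53 on untreated arrays (summed signals, as multiples of the 75th percentile). Its part in the results was not tested.

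The treatments left their known marks. Il6, an inflammatory cytokine gene like Tnf, stood at 4.78, 4.05 and 3.72 on LPS arrays, against -6.46, -6.31 and -5.88 on untreated arrays. Tnf stood at 6.06, 5.01 and 5.02 on LPS arrays, against 0.85, 0.37 and 0.23 on untreated arrays. Hmox1, the heme oxygenase that curcumin is known to induce, stood at 8.78, 8.37 and 8.49 on curcumin arrays, against 5.30, 4.23 and 5.04 on untreated arrays. LPS+curcumin replicate 1 stood apart from its group: its Il6 level was 0.86, against -2.76 and -3.95 on the other LPS+curcumin arrays, and over all genes tested its mean correlation was 0.982 with LPS arrays and 0.95 with curcumin arrays, while the other LPS+curcumin arrays correlated at 0.984 and 0.985 with curcumin arrays. Counts of calls are given with and without it. Replicate 2 of that group had 1594 spots marked as outliers, against 87 to 163 on the other arrays. Each of 3 slides held 1 array of every group, always in the same position for a group, so group and position cannot be told apart.

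The scale itself matters for curcumin. Against 7 spike-in RNAs added in fixed amounts, the 75th percentile lay at -2.08 ± 0.65 (log2, SD, n = 3) on LPS+curcumin arrays, -1.36 ± 0.14 on LPS arrays, -2.19 ± 0.15 on curcumin arrays and -1.09 ± 0.18 on untreated arrays. The median log2 fold change of all genes, curcumin against untreated, was accordingly 0.41 on the 75th percentile scale, -0.01 after quantile normalisation and -0.69 on the spike-in scale, and a rise is read below against that shift. LPS moved it less, to 0.0052, -0.10 and -0.27 on the same scales. Whether the arrays held less RNA per cell, fewer cells or less labelled RNA cannot be told apart here. The plot of levels by array shows these features for the 32 tested genes.

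**Figure D1:**
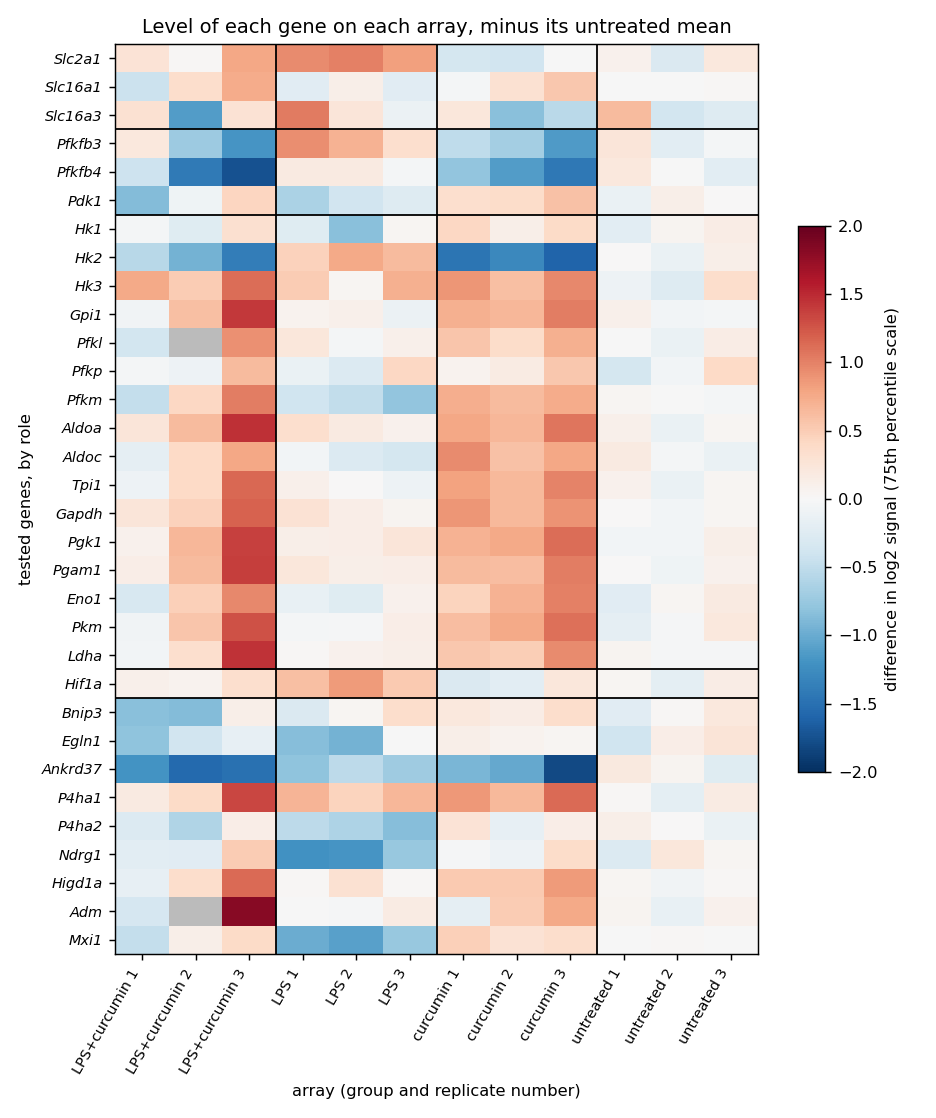
Level of each tested gene on each of the 12 arrays, as the difference in log2 signal from its untreated mean (colour scale from -2 to 2; grey marks a spot left out as an outlier). Rows are genes by role and columns are arrays by group. Hk2 and Pfkfb4 are below their untreated mean on every array with curcumin, while most other enzymes are above it on curcumin arrays and on LPS+curcumin replicates 2 and 3.

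In LPS-treated cells the enzymes of glycolysis stood close to untreated cells, while the glucose carrier Slc2a1 was higher and 2 HIF targets, Ndrg1 and Mxi1, were lower. Of the 32 genes, 1 was called higher and 2 lower, against 5.73% of all genes called (4.12% higher and 1.61% lower), a share near that of all genes. The 15 enzymes other than Hk2 had log2 fold changes from -0.56 (Pfkm) to 0.41 (Hk3) with a median of 0.03, and none was called (lowest adjusted p = 0.464). Pfkm alone of these 15 was called lower on the spike-in scale (log2 -0.84, adjusted p = 0.0404). Without LPS+curcumin replicate 1 the same 3 members were called, against 9.26% of all genes.

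Slc2a1, the main glucose carrier of many cells, had levels of 5.03, 5.09 and 4.90 on LPS arrays, against 4.17, 3.79 and 4.29 on untreated arrays. The groups did not overlap, and the fold change was 1.89 (log2 0.92 ± 0.23, limma adjusted p = 0.0416), with 0.85, 1.29 and 0.60 on slides 1, 2 and 3. The call was lost on the median scale and on the spike-in scale (there log2 0.64, adjusted p = 0.267). It was also lost when any 1 of the LPS, curcumin or untreated arrays was left out (adjusted p up to 0.204), and was held without any 1 LPS+curcumin array. Slc16a1 and Slc16a3, which carry lactate, had log2 fold changes of -0.11 and 0.39 and were not called.

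Ndrg1, a stress-responsive gene used as a HIF marker, had levels of 1.57, 1.6 and 2.03 on LPS arrays, against 2.52, 3.01 and 2.83 on untreated arrays. All 3 LPS arrays were below all untreated ones (log2 fold change -1.06 ± 0.25, limma adjusted p = 0.0331). Mxi1, an antagonist of MYC, had levels of 1.52, 1.42 and 1.75 on LPS arrays, against 2.51, 2.53 and 2.5 on untreated arrays. It too was separate between groups (log2 fold change -0.95 ± 0.22, limma adjusted p = 0.0298), and it was the 1 member called on all 5 scalings tried, against 0.642% of all genes lower and 1.73% higher on all 5. Ndrg1 missed the threshold on the median scale. With single arrays left out, Ndrg1 lost its call without LPS replicate 1 or 2, curcumin replicate 1 or 2, or any untreated array (adjusted p up to 0.16). Mxi1 lost it without any LPS array, curcumin replicate 2, or any untreated array (adjusted p up to 0.123).

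Hif1a, which encodes the oxygen-regulated HIF subunit, had levels of 2.65, 2.90 and 2.57 on LPS arrays, against 2.09, 1.85 and 2.19 on untreated arrays. These did not overlap, but the fold change did not pass the threshold over all genes (log2 0.66 ± 0.20, limma adjusted p = 0.0912). The same held for Hk2, with 5.10, 5.41 and 5.28 on LPS arrays and 4.66, 4.51 and 4.77 on untreated arrays (log2 0.62 ± 0.22, limma adjusted p = 0.168). Pfkfb3, whose enzyme makes the fructose 2,6-bisphosphate that drives phosphofructokinase, had 2.83, 2.60 and 2.24 on LPS arrays and 2.15, 1.69 and 1.87 on untreated arrays (log2 0.66 ± 0.33, limma adjusted p = 0.408). Pfkfb4, its relative, had a log2 fold change of 0.10, and Pdk1, a kinase that inhibits pyruvate dehydrogenase, -0.43, with neither called.

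Among the other HIF targets that did not pass the test, log2 fold changes were -0.68 for Ankrd37, -0.60 for Egln1, 0.59 for P4ha1 and -0.66 for P4ha2, the last 2 being collagen prolyl hydroxylase subunits. Bnip3, a mitophagy receptor, had 2.64, 2.97 and 3.27 on LPS arrays, against 2.69, 2.95 and 3.13 on untreated arrays. Adm, the vasodilator peptide adrenomedullin, had -5.60, -5.61 and -5.43 on LPS arrays, against -5.54, -5.74 and -5.50 on untreated arrays. The levels of both overlapped between the groups.

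Curcumin alone gave a split picture: Hk2, Pfkfb4 and Ankrd37 were lower on all 5 scalings, while the sign of the other enzymes depended on the scale. Of the 32 genes, 7 were called higher and 3 lower, against 29.2% of all genes (21.9% higher and 7.27% lower), shares near those of all genes. With LPS+curcumin replicate 1 out of the fit, which then had a smaller spread, the calls were 14 higher and 4 lower, against 49.5% of all genes (37% higher and 12.5% lower). With slide as a block they were 10 higher and 4 lower, against 42.1%, the gains being Pgam1, Eno1, Pkm and Pfkfb3. The direction of the calls turned with the scale. On the spike-in scale 0 were higher and 16 lower, against 7.24% of all genes higher and 43.5% lower, and on the median scale 0 were higher and 6 lower, against 8.18% and 25.1%. With normexp background correction Hk2 alone was called, lower, against 4.52% of all genes.

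Hk2, the inducible hexokinase that binds mitochondria, had levels of 3.18, 3.36 and 3.05 on curcumin arrays, against 4.66, 4.51 and 4.77 on untreated arrays. Curcumin levels were 0.367 times those of untreated cells (log2 -1.45 ± 0.22, limma adjusted p = 0.00188), with -1.48, -1.15 and -1.71 on slides 1, 2 and 3. Pfkfb4, a bifunctional enzyme that sets fructose 2,6-bisphosphate, had 1.44, 1.12 and 0.80 on curcumin arrays, against 2.45, 2.23 and 2.03 on untreated arrays. The groups were separate (log2 -1.12 ± 0.31, limma adjusted p = 0.0244). Ankrd37, an ankyrin repeat gene known as a HIF target, had 0.23, 0.12 and -0.66 on curcumin arrays, against 1.34, 1.2 and 0.91 on untreated arrays, again with no overlap (log2 -1.25 ± 0.25, limma adjusted p = 0.00548). These 3 were called lower on all 5 scalings, against 6.49% of all genes, and no member was called higher on all 5, against 6.7% of all genes. Hk2 and Ankrd37 kept their calls with each of the 12 arrays left out in turn, while with normexp Hk2 kept its call (adjusted p = 0.0314) and Ankrd37 and Pfkfb4 did not (adjusted p = 0.0536 and 0.051). Pfkfb4 lost its call without curcumin replicate 2 or 3 or untreated replicate 1 or 2 (adjusted p up to 0.0981).

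Pfkfb3 had 1.39, 1.23 and 0.77 on curcumin arrays, against 2.15, 1.69 and 1.87 on untreated arrays. All curcumin arrays were lower, and the call was missed in the 4-group fit (log2 -0.77 ± 0.33, limma adjusted p = 0.0939) and made with slide as a block (adjusted p = 0.0262), on the spike-in scale (log2 -1.88, adjusted p = 0.0163), on the median scale (log2 -1.61, adjusted p = 0.0219) and without LPS+curcumin replicate 1 (adjusted p = 0.0204). Its 2 dimmer probes gave log2 fold changes of 0.75 and 0.35, so the probes disagree in sign. Slc2a1 had 3.73, 3.70 and 4.08 on curcumin arrays, against 4.17, 3.79 and 4.29 on untreated arrays, which overlapped (log2 -0.25 ± 0.23, limma adjusted p = 0.398). After quantile normalisation its log2 fold change was -0.58 (adjusted p = 0.0337), and on the spike-in scale -1.35 (adjusted p = 0.0052). Hif1a overlapped between the groups, with 1.75, 1.83 and 2.27 on curcumin arrays and 2.09, 1.85 and 2.19 on untreated arrays. It was called lower on the spike-in scale (log2 -1.2, adjusted p = 0.00736) and on the median scale (log2 -0.93, adjusted p = 0.034).

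The 15 enzymes other than Hk2 were all above 0 on the 75th percentile scale. Their log2 fold changes ran from 0.25 (Pfkp) to 0.85 (Pgk1) with a median of 0.77, and 6 were called, namely Hk3, Aldoa, Aldoc, Tpi1, Gapdh and Pgk1. Gapdh, the dehydrogenase often used as a reference gene, had 8.09, 7.85 and 8.10 on curcumin arrays, against 7.21, 7.15 and 7.25 on untreated arrays (log2 0.81 ± 0.23, limma adjusted p = 0.0268). Pgk1, the phosphoglycerate kinase, had 8.05, 8.12 and 8.48 on curcumin arrays, against 7.30, 7.30 and 7.48 on untreated arrays. Tpi1, the triose phosphate isomerase, had 7.53, 7.38 and 7.72 on curcumin arrays, against 6.82, 6.59 and 6.77 on untreated arrays.

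Hk3, a hexokinase typical of myeloid cells, had 4.69, 4.41 and 4.77 on curcumin arrays, against 3.71, 3.55 and 4.16 on untreated arrays. Aldoa, an aldolase, had 9.40, 9.29 and 9.70 on curcumin arrays, against 8.73, 8.49 and 8.67 on untreated arrays. Aldoc, its paralog, had 3.98, 3.63 and 3.81 on curcumin arrays, against 3.21, 3.00 and 2.90 on untreated arrays. In all of these the groups were separate. P4ha1, the 1 HIF target called higher, had 2.13, 1.92 and 2.40 on curcumin arrays, against 1.30, 1.08 and 1.43 on untreated arrays (log2 0.88 ± 0.28, limma adjusted p = 0.0396). None of these 7 rises was held on every scale. On the spike-in scale all 15 enzymes were below 0, from -0.85 to -0.25 with a median of -0.33, against -0.69 for all genes, and Pfkl and Pfkp were called lower. After quantile normalisation their median was 0.16, and none of the 15 was called. The 7 rises were held in 2 to 7 of the 12 fits that each left out 1 array (adjusted p up to 0.15), and all 7 were lost without curcumin replicate 1 or 3 or untreated replicate 1 or 2. Ldha, lactate dehydrogenase A, was not called, with 8.14, 8.09 and 8.54 on curcumin arrays and 7.65, 7.57 and 7.58 on untreated arrays (limma adjusted p = 0.129).

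**Figure D2:**
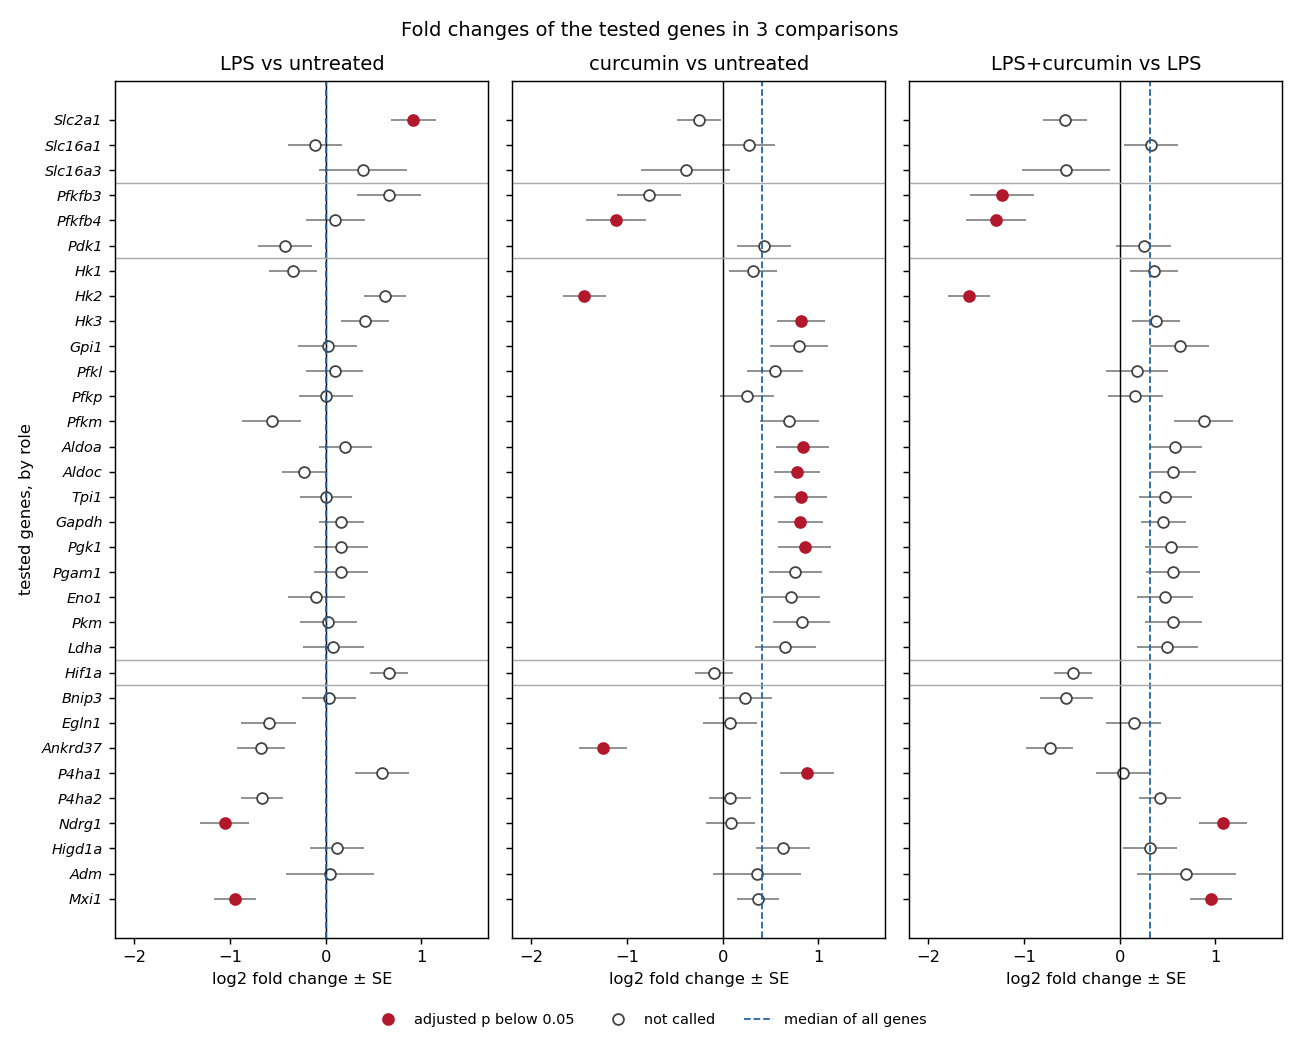
Log2 fold change of each tested gene with its standard error, in LPS against untreated, curcumin against untreated and LPS+curcumin against LPS (75th percentile scale; filled points have a limma adjusted p below 0.05; the dashed line is the median of all genes tested). Hk2 is at -1.45 for curcumin against untreated and at -1.58 for LPS+curcumin against LPS, left of all other enzymes in both panels.

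When curcumin was given with LPS, Hk2, Pfkfb3 and Pfkfb4 were lower than with LPS alone, and Ndrg1 and Mxi1 were higher. That made 2 genes called higher and 3 lower of 32, against 18.7% of all genes (12.7% higher and 5.99% lower), a share near that of all genes. Without LPS+curcumin replicate 1 the counts were 18 higher and 4 lower, against 55.1% of all genes (40.5% higher and 14.6% lower), and 12 of the 17 added calls were enzymes. The others were Slc16a1, Pdk1, Higd1a and Adm, higher, and Ankrd37, lower. On the spike-in and median scales 0 were higher and 7 lower, against 4.86% of all genes higher and 11.8% lower on the first and 5.19% and 16.1% on the second. With normexp there were 0 calls by limma, against 0.461% of all genes. This comparison shares its LPS arrays with LPS against untreated.

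Hk2 had levels of 4.09, 3.70 and 3.26 on LPS+curcumin arrays, against 5.10, 5.41 and 5.28 on LPS arrays. Every LPS+curcumin array was lower (log2 -1.58 ± 0.22, limma adjusted p = 0.00207), with -1.01, -1.71 and -2.01 on slides 1, 2 and 3, and the call was held with each of the 12 arrays left out in turn but lost with normexp (log2 -1.65, adjusted p = 0.281). Pfkfb3 had 2.11, 1.17 and 0.72 on LPS+curcumin arrays, against 2.83, 2.60 and 2.24 on LPS arrays. Its log2 fold change was -1.23 ± 0.33 (limma adjusted p = 0.0298), and -1.62 ± 0.26 without LPS+curcumin replicate 1 (adjusted p = 0.000615). Pfkfb4 had 1.82, 0.82 and 0.50 on LPS+curcumin arrays, against 2.41, 2.42 and 2.19 on LPS arrays (log2 -1.30 ± 0.31, limma adjusted p = 0.0197), with -1.68 ± 0.23 without LPS+curcumin replicate 1 (adjusted p = 0.000177). These 3 were called lower on all 5 scalings, against 5.01% of all genes, and none was called higher on all 5, against 3.34% of all genes. Pfkfb3 lost its call without LPS+curcumin replicate 2 or 3 or any LPS array (adjusted p up to 0.11), and its dimmer probes had log2 fold changes of -0.23 and -0.56. Pfkfb4 lost its call without LPS+curcumin replicate 2 or 3 or LPS replicate 1 or 2 (adjusted p up to 0.0842).

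Ndrg1 had 2.58, 2.56 and 3.29 on LPS+curcumin arrays, against 1.57, 1.6 and 2.03 on LPS arrays (log2 1.08 ± 0.25, limma adjusted p = 0.0176). Mxi1 had 2.03, 2.63 and 2.90 on LPS+curcumin arrays, against 1.52, 1.42 and 1.75 on LPS arrays (log2 0.95 ± 0.22, limma adjusted p = 0.0171). Both were separate between the groups, with LPS+curcumin levels that overlapped those of untreated cells, and both lost the call on the spike-in scale (log2 0.36 and 0.23) and on the median scale. Ndrg1 also lost it without LPS replicate 1 or 2 (adjusted p up to 0.0681), and Mxi1 without LPS+curcumin replicate 2 or LPS replicate 1 or 2 (adjusted p up to 0.0714).

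Slc2a1 had 4.35, 4.10 and 4.85 on LPS+curcumin arrays, against 5.03, 5.09 and 4.90 on LPS arrays. These did not overlap, the difference on slide 3 was -0.04, and the fold change was not called (log2 -0.57 ± 0.23, limma adjusted p = 0.101). Hif1a had 2.14, 2.11 and 2.38 on LPS+curcumin arrays, against 2.65, 2.90 and 2.57 on LPS arrays (log2 -0.49 ± 0.20, limma adjusted p = 0.103). On the spike-in scale both were called lower, Slc2a1 with log2 -1.29 (adjusted p = 0.0134) and Hif1a with -1.21 (adjusted p = 0.0168), as they were on the median scale, and Slc2a1 was after quantile normalisation too (log2 -0.72, adjusted p = 0.0213). Ankrd37 had -0.04, -0.40 and -0.35 on LPS+curcumin arrays, against 0.34, 0.63 and 0.44 on LPS arrays, and did not pass (log2 -0.73 ± 0.25, limma adjusted p = 0.0616). It passed with slide as a block (adjusted p = 0.0329), on the spike-in scale (log2 -1.45, adjusted p = 0.0418), on the median scale (log2 -1.47, adjusted p = 0.0198) and without LPS+curcumin replicate 1 (adjusted p = 0.0198).

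The enzymes other than Hk2 had log2 fold changes from 0.16 (Pfkp) to 0.88 (Pfkm) with a median of 0.50, against 0.32 for all genes, and none was called. They varied widely between the LPS+curcumin arrays. Gapdh had 7.44, 7.66 and 8.38 there, against 7.50, 7.33 and 7.26 on LPS arrays. Ldha had 7.54, 7.94 and 9.05 on LPS+curcumin arrays, against 7.63, 7.68 and 7.72 on LPS arrays. On replicate 1 both lay within the range of the LPS arrays or below it, and on replicate 3 they lay well above. Without LPS+curcumin replicate 1, 12 of the 15 enzymes were called higher, with a median of 0.82, against 0.49 for all genes. On the spike-in scale 14 of the 15 were below 0, and none was called. After quantile normalisation Pfkm was called (log2 0.81, adjusted p = 0.0448).

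Set against curcumin alone, LPS+curcumin gave 0 called genes of 32 by limma, with 2 at an unadjusted p below 0.05, against 0.212% of all genes called. Without LPS+curcumin replicate 1 it gave 0 again, with 2 at an unadjusted p below 0.05, against 0.368% of all genes. Slc2a1 stood at 4.35, 4.10 and 4.85 on LPS+curcumin arrays, against 3.73, 3.70 and 4.08 on curcumin arrays, a separation that did not pass the test (log2 0.60 ± 0.23, adjusted p = 0.756). Bnip3 had 2.09, 2.06 and 3.04 on LPS+curcumin arrays, against 3.14, 3.07 and 3.28 on curcumin arrays (log2 -0.76 ± 0.28, limma adjusted p = 0.706). All LPS+curcumin arrays were lower for this mitophagy receptor, without a call.

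Against untreated cells, LPS+curcumin lowered Hk2 (log2 -0.96 ± 0.22, limma adjusted p = 0.0132), Pfkfb4 (-1.19 ± 0.31, adjusted p = 0.0216) and Ankrd37 (-1.41 ± 0.25, adjusted p = 0.00433), and raised Hk3 (0.79 ± 0.25, adjusted p = 0.0409). These 1 higher and 3 lower calls of 32 compare with 24.5% of all genes called (18.2% higher and 6.26% lower). The lower 3 were called on all 5 scalings, against 5.66% of all genes, and Hk3 was not, with 3.94% of all genes higher on all 5. Hk3 had 4.57, 4.31 and 4.93 on LPS+curcumin arrays, against 3.71, 3.55 and 4.16 on untreated arrays. With slide as a block, Aldoa, Pgk1 and Pgam1 were also called higher, giving 7 calls against 34.1% of all genes. Without LPS+curcumin replicate 1 there were 16 higher and 4 lower, against 53.9% of all genes (40% higher and 13.8% lower). The spike-in scale gave 0 higher and 19 lower, against 6.26% of all genes higher and 40.8% lower, and on the median scale 0 were higher and 9 lower, against 6.52% and 29.4%. Ankrd37 kept its call with each of the 12 arrays left out in turn. With normexp it did not (log2 -1.29, adjusted p = 0.135), nor did any other member, against 0.456% of all genes called. Hk2 lost it without untreated replicate 3 (adjusted p = 0.0546), and Pfkfb4 without LPS+curcumin replicate 2 or 3 or untreated replicate 1 or 2 (adjusted p up to 0.0806). Hk3 lost it in all fits but 4 (adjusted p up to 0.145).

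The interaction asks whether the response to LPS differs with curcumin present. By limma 0 of 32 genes were called, with 1 at an unadjusted p below 0.05 and a lowest adjusted p of 0.482, against 0.73% of all genes called. Without LPS+curcumin replicate 1 there were again 0 calls, with 4 at an unadjusted p below 0.05 and a lowest adjusted p of 0.131, against 2.22% of all genes. A different response to LPS under curcumin was not detectable for any of the 32 with 3 arrays a group.

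Other scalings changed the share of all genes called as well. On the spike-in scale it was 3.38% for LPS against untreated, 50.7% for curcumin against untreated, 16.6% for LPS+curcumin against LPS and 47% for LPS+curcumin against untreated. After quantile normalisation these shares were 5.23%, 21.9%, 13.4% and 16%, and on the median scale 3.41%, 33.3%, 21.3% and 36%. With slide as a block they were 7.79%, 42.1%, 28.7% and 34.1%. For LPS against untreated normexp gave 0 called members, against 1.02% of all genes.

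A difference between 2 genes on the same array is left as it is by a scaling that shifts the whole array by 1 value (75th percentile, median or spike-in), though not by quantile normalisation, so the genes that set glucose entry and flux were also read relative to the mean change of the 15 enzymes other than Hk2. This choice was made after seeing the data, and the values are a description with no test. Pfkl is missing from LPS+curcumin replicate 2. On this footing Slc2a1 stood at 0.28, -0.40 and -0.33 on LPS+curcumin arrays, 0.88, 1.09 and 0.76 on LPS arrays, -1.0, -0.94 and -0.89 on curcumin arrays and 0.13, -0.23 and 0.10 on untreated arrays. LPS arrays were highest, curcumin arrays lowest, and LPS+curcumin arrays overlapped the untreated ones. As means, Slc2a1 was at 0.903 times its untreated ratio to the enzymes with LPS+curcumin, 1.88 times with LPS and 0.519 times with curcumin.

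Hk2 relative to the enzymes stood at -0.54, -1.36 and -2.48 on LPS+curcumin arrays, 0.40, 0.86 and 0.58 on LPS arrays, -2.11, -1.84 and -2.48 on curcumin arrays and 0.05, -0.07 and 0.02 on untreated arrays. None of the other 3 groups overlapped the untreated arrays. The mean for curcumin was 0.226 times the untreated ratio. Among LPS+curcumin arrays replicate 1 was the least changed.

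Pfkfb4 gave -0.40, -1.83 and -2.84 on LPS+curcumin arrays, 0.12, 0.27 and -0.10 on LPS arrays, -1.44, -1.67 and -2.33 on curcumin arrays and 0.25, 0.05 and -0.31 on untreated arrays. Pfkfb3 gave 0.22, -1.14 and -2.28 on LPS+curcumin arrays, 0.87, 0.80 and 0.29 on LPS arrays, -1.16, -1.23 and -2.02 on curcumin arrays and 0.29, -0.15 and -0.14 on untreated arrays. For both regulators the curcumin arrays were clear of the untreated ones, and LPS+curcumin replicate 1 lay far from the other LPS+curcumin arrays.

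Hif1a relative to the enzymes was 0.12, -0.34 and -0.76 on LPS+curcumin arrays, 0.55, 0.95 and 0.47 on LPS arrays, -0.94, -0.77 and -0.65 on curcumin arrays and 0.08, -0.13 and 0.05 on untreated arrays. Its order was that of Slc2a1: LPS above untreated, curcumin below. Ankrd37 was below the untreated arrays in all 3 other groups, with means of -1.91 ± 0.72 for LPS+curcumin, -0.69 ± 0.24 for LPS and -1.95 ± 0.64 for curcumin (SD, n = 3). Gapdh and Ldha, which are themselves among the 15, were within 0.36 of the mean of the 15 on every array.

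**Figure D3:**
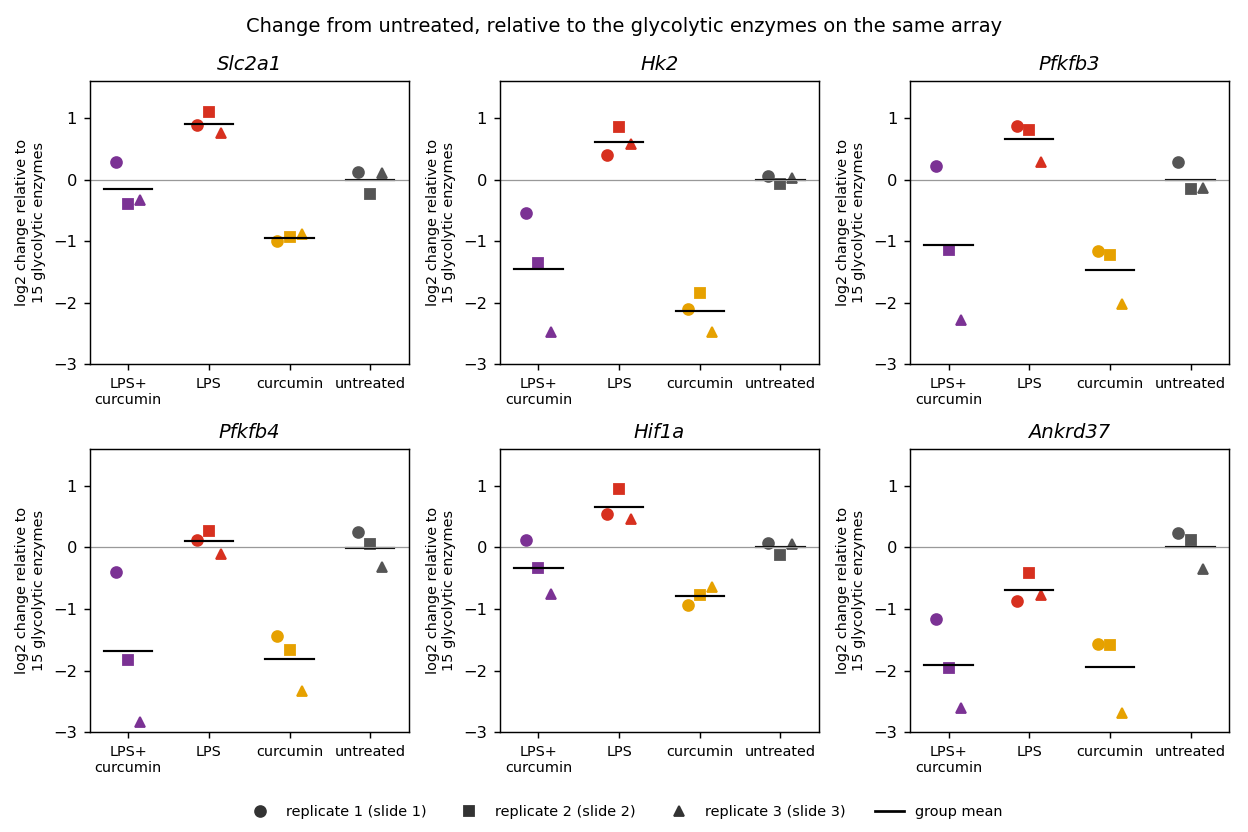
Log2 change from the untreated mean of 6 genes, minus the mean change of 15 glycolytic enzymes on the same array (y axis; a shift of the whole array cancels, quantile normalisation would not). Each point is an array, its shape the replicate and slide, and bars are group means. Slc2a1 runs from 0.76 to 1.09 on LPS arrays and from -1.0 to -0.89 on curcumin arrays.

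Glycolytic enzymes and other HIF targets are both known to answer to HIF, and the 2 sets were compared within each array. The mean change of 16 enzymes minus that of 9 other HIF targets was 0.41, 0.67 and 0.52 on LPS+curcumin arrays, 0.53, 0.36 and 0.30 on LPS arrays, 0.37, 0.35 and 0.49 on curcumin arrays and 0.02, -0.08 and 0.06 on untreated arrays. All 9 treated arrays lay above the 3 untreated ones. On the processed signal the HIF targets thus stood lower on average relative to the enzymes in every treatment, but with normexp not for curcumin. Group means were 0.53 ± 0.13 with LPS+curcumin, 0.39 ± 0.12 with LPS, 0.40 ± 0.08 with curcumin and 0 ± 0.07 in untreated cells (SD, n = 3). No test was run on these means.

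The levels behind that gap are given on the 75th percentile scale. With LPS the enzymes averaged 0.04 ± 0.07 and the HIF targets -0.35 ± 0.12. With curcumin the enzymes averaged 0.56 ± 0.15 and the HIF targets 0.16 ± 0.07. With LPS+curcumin both varied between arrays, the enzymes at -0.05, 0.32 and 0.94 and the HIF targets at -0.46, -0.35 and 0.42. The gap depended on the background correction: with normexp it was -0.18 for curcumin against untreated. When Slc2a1, Slc16a3, Pfkfb3, Pfkfb4 and Pdk1 were added to the enzymes it was 0.17 for that comparison.

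The 9 HIF targets did not move as 1 block. Relative to the 15 enzymes, P4ha1 stood at 0.59 ± 0.05 with LPS and Higd1a, a mitochondrial protein induced by low oxygen, was within 0.40 of their mean on every array. Ndrg1 stood at -1.06 ± 0.24 and Mxi1 at -0.95 ± 0.13 with LPS, against -0.62 ± 0.09 and -0.33 ± 0.19 with curcumin (SD, n = 3). Bnip3 stood at -1.02 ± 0.23 with LPS+curcumin, 0.03 ± 0.33 with LPS, -0.46 ± 0.06 with curcumin and 0 ± 0.17 in untreated cells, so it was lowest in the combined treatment. Egln1, the main oxygen sensor among the prolyl hydroxylases, stood at -0.95 ± 0.26 with LPS+curcumin, -0.60 ± 0.47 with LPS and -0.62 ± 0.19 with curcumin. Pdk1, counted among the regulators, stood at -0.67 ± 0.18, -0.43 ± 0.22 and -0.27 ± 0.06 in the same groups.

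**Figure D4:**
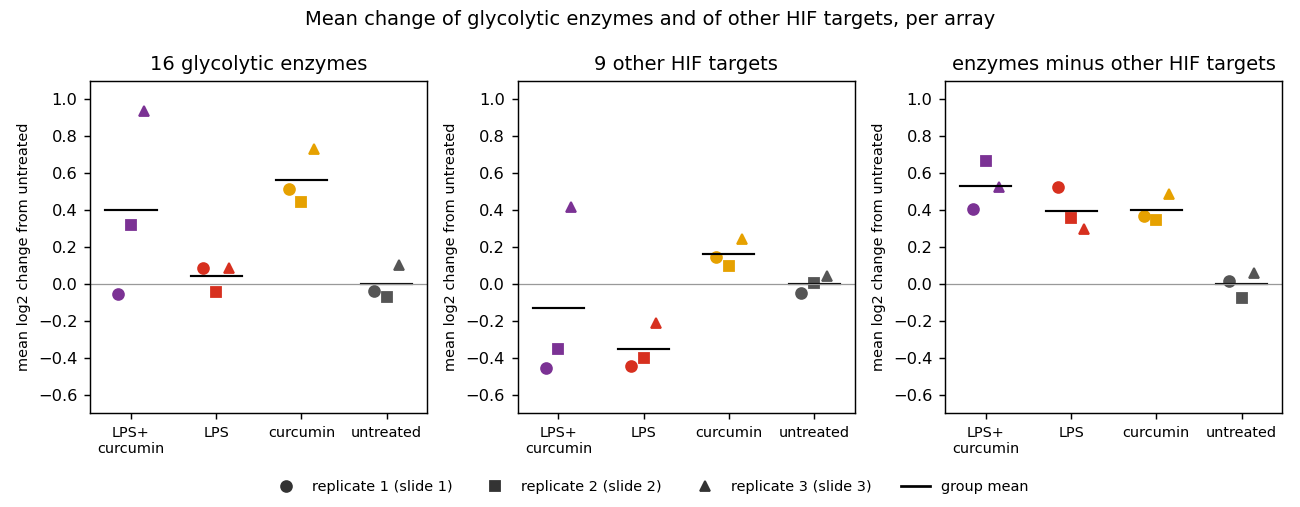
Mean log2 change from untreated of 16 glycolytic enzymes, of 9 other HIF targets, and their difference, on each array (75th percentile scale for the first 2 panels; points are arrays, shapes are replicates and slides, bars are group means). The difference is between 0.30 and 0.67 on the 9 treated arrays and between -0.08 and 0.06 on the untreated ones.

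Other genes of the same pathways were read from a list of 39 genes of sugar metabolism (32 tested) and a list of 40 genes of the HIF pathway (33 tested). With LPS, 1 of the 32 sugar genes was called higher and 1 lower, and 3 of the 33 HIF pathway genes higher and 1 lower. Of all genes 4.12% were higher and 1.61% lower. The HIF pathway share was above that of all genes, but on few calls and in a list chosen with earlier results known. The sugar counts were the same without LPS+curcumin replicate 1, and 4 HIF pathway genes were then higher and 1 lower, against 9.26% of all genes called. The median log2 fold changes were 0.0033 and -0.03, against 0.0052 for all genes. Slc2a6, a hexose carrier of inner membranes, had 5.35, 4.86 and 4.52 on LPS arrays, against 2.91, 2.71 and 2.64 on untreated arrays (log2 2.15 ± 0.26, limma adjusted p = 0.000419). It was 4.45-fold higher, with no overlap. Slc2a8, another intracellular hexose carrier, was lower (log2 -1.05 ± 0.22, limma adjusted p = 0.0179), a call lost on the spike-in and median scales (adjusted p = 0.0631 and 0.066) and without LPS replicate 2 or 3 or untreated replicate 1 or 2 (adjusted p up to 0.0858).

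Edn1, which encodes the vasoconstrictor endothelin, had -0.04, -0.33 and -0.84 on LPS arrays, against -6.80, -6.46 and -6.95 on untreated arrays. That is 80.6-fold higher (log2 6.33 ± 0.33, limma adjusted p = 2.09e-06). The untreated signal of Edn1 was dim, though well above background on all 3 arrays, so the size of this fold is uncertain. Nampt, an enzyme of NAD salvage, rose by log2 0.86 ± 0.17 (limma adjusted p = 0.0123), and Zfp395, a zinc finger gene, fell by 2.31 on the log2 scale (adjusted p = 0.00061). Nampt lost its call on the spike-in and median scales (adjusted p = 0.376 and 0.382) and without LPS replicate 1 or untreated replicate 2 (adjusted p up to 0.0809), and Edn1, Slc2a6 and Zfp395 kept theirs with each array left out.

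With curcumin, 8 sugar genes were called higher and 2 lower, and 5 HIF pathway genes higher and 3 lower, against 21.9% of all genes higher and 7.27% lower, with median log2 fold changes of 0.55 and 0.18, against 0.41 for all genes. The spike-in scale gave 3 sugar genes higher and 11 lower, and 2 HIF pathway genes higher and 18 lower, against 7.24% of all genes higher and 43.5% lower. On the median scale the counts were 3 and 5 for sugar genes and 2 and 13 for HIF pathway genes, against 8.18% and 25.1% of all genes. With slide as a block they were 13 and 2 for sugar genes and 6 and 4 for HIF pathway genes, against 42.1% of all genes, and without LPS+curcumin replicate 1 they were 17 and 2 and 11 and 4, against 49.5% of all genes. On all 5 scalings 3 sugar genes were higher and 1 lower, and 2 HIF pathway genes were higher and 2 lower, near the 6.7% of all genes higher and 6.49% lower. Vegfa, the vascular growth factor and a classic HIF target, had 2.87, 3.00 and 3.41 on curcumin arrays, against 1.30, 0.96 and 1.7 on untreated arrays (log2 1.77 ± 0.35, limma adjusted p = 0.00525). Angptl4, an inhibitor of lipoprotein lipase, had a log2 fold change of 3.94 ± 0.95 (limma adjusted p = 0.0132). Arnt, the partner of HIF-1α, was lower, with -1.66, -1.56 and -2.09 on curcumin arrays and -0.35, -0.71 and -0.93 on untreated arrays (log2 -1.10 ± 0.27, limma adjusted p = 0.0141). Hif3a, a HIF subunit of dim signal, had log2 1.30 ± 0.33 (adjusted p = 0.0169), and Rora, a nuclear receptor, 1.77 ± 0.44 (adjusted p = 0.0145), both lost on the spike-in scale (adjusted p = 0.389 and 0.315) and on the median scale. Hif3a was not called after quantile normalisation either (limma adjusted p = 0.12). Vegfa was the 1 of these 5 whose call was held with each array left out. Without curcumin replicate 3 the adjusted p reached 0.0513 for Angptl4. Without curcumin replicate 3 or untreated replicate 1 it reached 0.0639 for Arnt and 0.0716 for Hif3a, and without curcumin replicate 1 or untreated replicate 2 or 3 it reached 0.0587 for Rora.

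Hkdc1, a member of the hexokinase family, was well above background on all 3 curcumin arrays and on 0 untreated arrays. Taken against the lowest signal well above background on each untreated array, it was at least 200-fold higher with curcumin (limma adjusted p = 0.00176). Hkdc1 entered the tests only through the groups with curcumin, where it is high. Its p and its calls, here and below, are therefore no independent support. Slc2a3, the glucose carrier GLUT3, had -3.94, -3.74 and -3.50 on curcumin arrays, against -7.04, -5.86 and -6.16 on untreated arrays (log2 2.63 ± 0.67, limma adjusted p = 0.0162). Ldhb, the other lactate dehydrogenase subunit, had log2 3.40 ± 0.76 (adjusted p = 0.00898) and Mpc1, a subunit of the mitochondrial pyruvate carrier, 0.79 ± 0.20 (adjusted p = 0.0171). Pfkfb1 was lower (log2 -1.18 ± 0.29, limma adjusted p = 0.0145), as its relative Pfkfb4 was. Mpc1 had the opposite sign on the spike-in scale and was not called after quantile normalisation (limma adjusted p = 0.0717). Hkdc1 and Ldhb kept their calls with each array left out. Slc2a3 and Pfkfb1 lost theirs without curcumin replicate 3 or untreated replicate 1 (adjusted p up to 0.0633 and 0.0588), and Mpc1 without curcumin replicate 3 or any untreated array (adjusted p up to 0.0618).

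In LPS+curcumin against LPS, 5 sugar genes were called higher and 2 lower, and 3 HIF pathway genes higher and 4 lower, against 12.7% of all genes higher and 5.99% lower. The counts without LPS+curcumin replicate 1 were 16 higher and 3 lower for sugar genes and 10 higher and 10 lower for HIF pathway genes, against 40.5% and 14.6% of all genes. With slide as a block they were 7 and 2 and 6 and 6, against 28.7% of all genes. On the spike-in and median scales they were 2 and 4 for sugar genes and 2 and 6 for HIF pathway genes. Of all genes 4.86% were higher and 11.8% lower on the spike-in scale, and 5.19% and 16.1% on the median scale. Edn1 had -4.45, -3.81 and -3.09 on LPS+curcumin arrays, against -0.04, -0.33 and -0.84 on LPS arrays (log2 -3.38 ± 0.33, limma adjusted p = 0.000293). Its interaction was called as well (log2 -4.11 ± 0.46, limma adjusted p = 0.00157), as was that of Slc2a6 (log2 -1.89 ± 0.36, limma adjusted p = 0.0412), which was lost in 9 of the 12 fits without 1 array, all but those without LPS+curcumin replicate 1 or 3 or LPS replicate 3 (adjusted p up to 0.134), and on the quantile, spike-in and median scales (adjusted p = 0.0787, 0.667 and 0.443). Nampt (log2 -0.73 ± 0.17), Slc2a6 (-1.10 ± 0.26) and Pfkfb1 (-1.21 ± 0.29) were also lower. Vegfa (log2 1.61 ± 0.35), Slc2a3 (2.95 ± 0.67), Rora (2.18 ± 0.44) and Taldo1, the transaldolase of the pentose phosphate path (0.86 ± 0.21), were higher. Slc2a3 was well above background on 1 of the 3 LPS arrays. Edn1, Rora and Hkdc1 kept their calls with each array left out. The others named here lost theirs without LPS+curcumin replicate 2 and without 1 or more LPS arrays (adjusted p up to 0.0887), and Pfkfb1 also without LPS+curcumin replicate 3. Taldo1 was not called on the quantile, spike-in or median scale, Vegfa not on the median scale (adjusted p = 0.067) and Rora not on the spike-in scale (adjusted p = 0.0869). Hkdc1 was at least 47.9-fold higher, with -6.01 on LPS+curcumin replicate 1 and 0.39 and 1.12 on the others.

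Against curcumin alone, Edn1 was the 1 gene of these lists named by the rule (log2 2.22 ± 0.33, limma adjusted p = 0.021), and it was well above background on 2 of 3 curcumin arrays. That call was lost without LPS+curcumin replicate 2, LPS replicate 2 or any curcumin array (adjusted p up to 0.128). Against untreated cells, 7 sugar genes were called higher and 1 lower and 5 HIF pathway genes higher and 2 lower, against 18.2% of all genes higher and 6.26% lower. These counts were 17 and 2 and 11 and 5 without LPS+curcumin replicate 1, against 40% of all genes higher and 13.8% lower. On the spike-in scale they were 2 and 15 and 3 and 13, against 6.26% of all genes higher and 40.8% lower. With slide as a block they were 9 and 2 and 7 and 2, against 34.1% of all genes. LPS+curcumin gave higher Edn1 (log2 2.95 ± 0.33), Vegfa (1.89 ± 0.35), Rora (1.58 ± 0.44), Hif3a (1.34 ± 0.33), Ldhb (3.01 ± 0.76), Slc2a6 (1.06 ± 0.26), Taldo1 (0.89 ± 0.21) and Mpc1 (0.72 ± 0.20). Hkdc1 was at least 59.5-fold higher, and Zfp395 was lower (log2 -1.92 ± 0.29). Ldhb stood at -5.63 on LPS+curcumin replicate 1, against -2.67 and -1.73 on the others, and its log2 fold change without that array was 4.15. Edn1, Vegfa, Hkdc1 and Zfp395 kept their calls against untreated with each array left out, and the others lost them without 1 or more of LPS+curcumin replicates 2 and 3 and the untreated arrays (adjusted p up to 0.0957). Taldo1 and Mpc1 had the opposite sign on the spike-in scale, where Slc2a6, Hif3a and Rora were not called either (adjusted p = 0.908, 0.163 and 0.389). After quantile normalisation Ldhb, Hif3a, Rora, Taldo1 and Mpc1 were not called (limma adjusted p = 0.0501, 0.13, 0.0932, 0.337 and 0.0802). The median scale lost Slc2a6, Hif3a, Rora, Taldo1 and Mpc1.

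**Figure D5:**
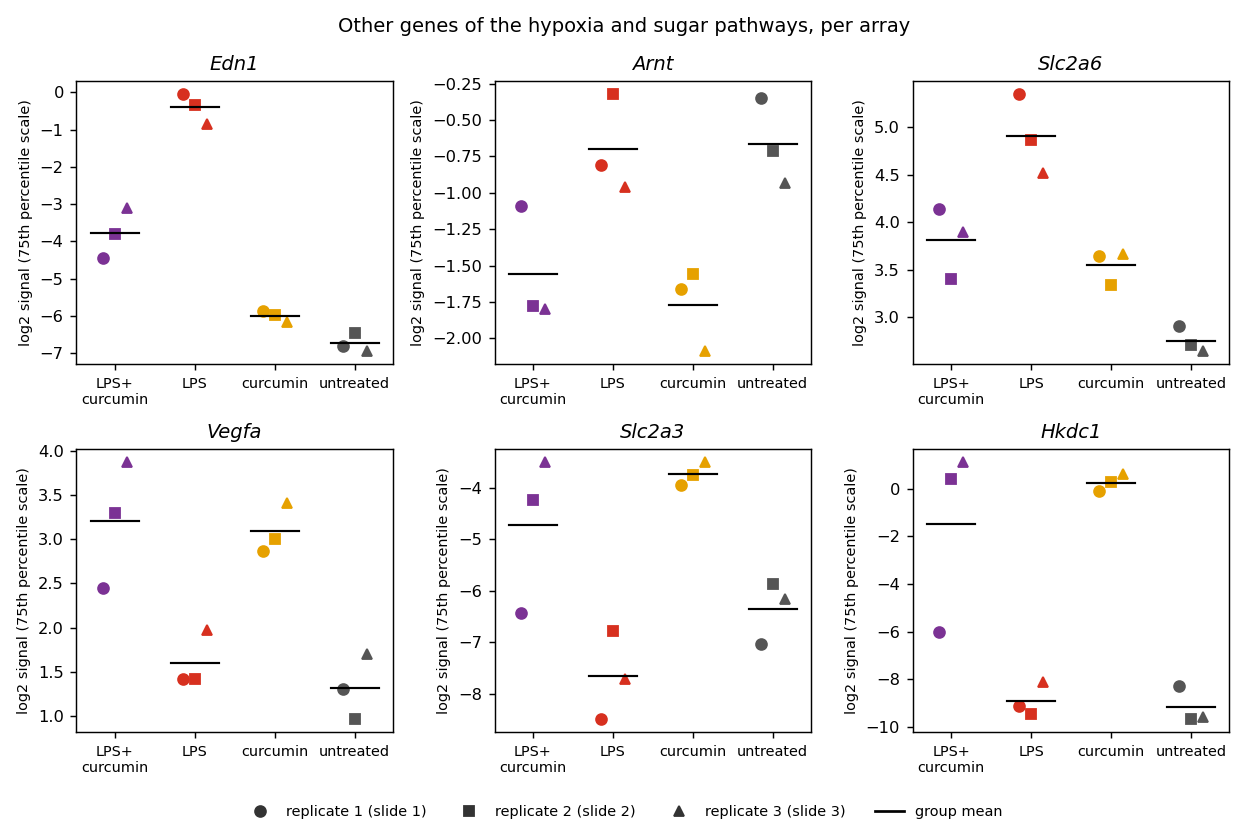
Log2 signal (75th percentile scale) of 6 other pathway genes on each array, with points as arrays, shapes as replicates and slides, and bars as group means. Edn1 lies between -0.84 and -0.04 on LPS arrays and below -3 in all other groups, and Hkdc1 is near or above 0 on curcumin arrays and on LPS+curcumin replicates 2 and 3.

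Of the members left untested, Egln3, an oxygen-sensing prolyl hydroxylase and HIF target, had -3.01, -3.03 and -6.43 on LPS+curcumin arrays, -2.93, -7.19 and -8.17 on LPS arrays, -2.69, -5.78 and -6.94 on curcumin arrays and -2.76, -7.06 and -7.55 on untreated arrays. It was high on all 4 arrays of replicate 1, whatever the treatment, and on LPS+curcumin replicate 2, with a mean of -2.85 on slide 1, -5.77 on slide 2 and -7.27 on slide 3. Eno2, the neuronal enolase, had 0 arrays well above background. Outlier spots removed Pfkl and Adm from LPS+curcumin replicate 2, so their group means rest on 2 arrays. Adm had -5.93 and -3.77 on the remaining ones, against -5.60, -5.61 and -5.43 on LPS arrays and -5.78, -5.08 and -4.83 on curcumin arrays. Of the 32 tested members 11 had more than 1 probe above background. For Aldoa, Gapdh, Ldha and Pgk1 the second probe gave log2 fold changes of 0.85, 0.85, 0.78 and 0.84 for curcumin against untreated, close to the 0.84, 0.81, 0.66 and 0.85 of the first. Other members had probes that differed, as those of Pfkfb3 did. In that comparison the second Pfkp probe gave 0.85, against 0.25, and the third Slc16a1 probe -0.12, against 0.27. For LPS+curcumin against LPS the second probe gave 0.69 for Pfkp, against 0.16, and 0.49 for P4ha1, against 0.03.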

How the data were processed

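RNA of 12 BV2 samples, 3 in each of 4 groups given by the labels, was hybridised to one-colour Cy3 Agilent arrays of 45018 spots, 1639 of them controls. The files hold spot intensity as deposited by the authors: the processed signal, background-subtracted by Agilent Feature Extraction (the file headers name 10.5.1.1, the submitters' processing notes 9.1), not normalised between arrays. The authors' deposited value table of intensity equals it within 0.397%. The number of arrays limits the precision.

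From these intensities, log2 signal minus each array's 75th percentile was computed, outlier spots were left out, spots of a probe were averaged, and the brightest probe of each gene was tested with limma 3.58.1 in R 4.3.3 (4 group means, 12 arrays, Benjamini-Hochberg over 19318 genes and transcripts, called below 0.05). No spot was saturated. RefSeq accessions named 25097 of 41174 probes. The fit was tested on simulated data over 19318 genes. For LPS against untreated it recovered 9% of 100 genes changed by log2 1 and 67% of 100 changed by log2 2. For curcumin against untreated it recovered 24% and 76%. Far fewer genes were changed there than were called in these data (5.73% for LPS and 29.2% for curcumin). The threshold on adjusted p depends on that share, so these recoveries do not carry over to the data. Alternatives were 4 other scalings, normexp (offset 50, on median signal and median background, since the files used here give no mean signal), the value table, no filter, all probes averaged, fewer arrays, and the slide as a block.

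The slide and the scan carry the replicate number. Deviations of same-numbered arrays from their group means correlated at 0.173 to 0.568 for replicate 1, 0.114 to 0.37 for replicate 2 and -0.02 to 0.711 for replicate 3, so the numbers are treated as a slide batch, not as pairs of cultures; blocked values of members and blocked counts of both lists are given where they change.

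The members, the pathway lists and the markers were chosen with earlier results of these data known. All members are named. Values of every array are given for called members whose groups do not overlap and for Slc2a1, Hk2, Pfkfb3, Gapdh, Ldha, Hif1a, Egln3, Adm and Bnip3. Of the pathway lists, the called genes with the 5 smallest adjusted p in each comparison are named, except 1 gene that is counted but not reported here.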

Additional observations from a re-analysis of the deposited data

How the results depend on the processing

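Calls of Hk2 and Ankrd37 for curcumin against untreated, of Hk2 for LPS+curcumin against LPS and of Ankrd37 for LPS+curcumin against untreated were held in all 12 fits that each left out 1 array, but with normexp only that of Hk2 for curcumin against untreated was held. Counts of called genes were less steady, and the cause was not tested except where fewer arrays or more genes entered the fit. No share of all genes is given for the fits with no filter, with only the groups compared or without all arrays of replicate 1. Nor is it given with 1 array left out, other than LPS+curcumin replicate 1. The counts from those fits cannot be read as a result about the members. For LPS against untreated the count was 3, and it was 1 on the median scale, 0 with normexp, 0 with no filter on dim probes, 9 with only the groups compared, 0 without all arrays of replicate 1, and 0 to 4 with 1 array left out. For curcumin against untreated it was 10, and 6 on the median scale, 5 after quantile normalisation, 16 on the spike-in scale, 1 with normexp, 4 with no filter, 20 with only the groups compared, 5 without all arrays of replicate 1, and 2 to 19 with 1 array left out. In LPS+curcumin against LPS it was 5, and 0 with normexp, 1 with only the groups compared, 16 without all arrays of replicate 1, and 1 to 22 with 1 array left out, the highest without LPS+curcumin replicate 1. In LPS+curcumin against curcumin it was 0, and 0 to 1 with 1 array left out. In LPS+curcumin against untreated it was 4, and 9 on the median scale, 19 on the spike-in scale, 0 with normexp, 7 with slide as a replicate block, 1 with only the groups compared, 14 without all arrays of replicate 1, and 2 to 20 with 1 array left out. The block changed no other member's call than those given with the results. The interaction had 0 calls in every fit that gave one.

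The gap between glycolytic enzymes and other HIF targets (log2) moved as follows. For LPS against untreated it was 0.65 as a difference of medians, and 0.33 to 0.44 with 1 array left out. For curcumin against untreated it was 0.23 after quantile normalisation, -0.18 with normexp, 0.17 with transporters and regulators added, 0.53 with medians, and 0.36 to 0.43 with 1 array left out. For LPS+curcumin against LPS it was -0.0078 after quantile normalisation, -0.15 with transporters and regulators added, and 0.05 to 0.16 with 1 array left out. For LPS+curcumin against curcumin it was 0.55 with normexp, and 0.06 to 0.13 with 1 array left out. For LPS+curcumin against untreated it was 0.32 after quantile normalisation, 0.37 with normexp, 0.31 with transporters and regulators added, and 0.45 to 0.52 with 1 array left out. The interaction was 0.26 with normexp, -0.56 with medians, and -0.35 to -0.24 with 1 array left out. The share of member promoters with the motif was 58.3% with ACGTG alone.

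Signs turned mostly on the spike-in scale, whose level relative to the 75th percentile differs between groups as given above. Listed here are only members and named pathway genes called on the 75th percentile scale or with the setting named. Genes called in neither turned as well, among them Gpi1, Pgam1, Eno1, Pkm and Ldha on the spike-in scale for curcumin against untreated. For curcumin against untreated the spike-in log2 fold changes that turned were Hk3 -0.29, Pfkl -0.56, Pfkp -0.85, Aldoa -0.27, Aldoc -0.33, Tpi1 -0.29, Gapdh -0.30, Pgk1 -0.25, Slc16a1 -0.83, Pdk1 -0.68, Bnip3 -0.87, Egln1 -1.03, P4ha1 -0.23, P4ha2 -1.03, Ndrg1 -1.02, Mxi1 -0.73 and Mpc1 -0.32. On the median scale they were Hk3 -0.022, Aldoa -0.0015, Aldoc -0.0661, Tpi1 -0.0248, Gapdh -0.028 and Mpc1 -0.048, and with normexp Hk3 -0.0186, Aldoc -0.0629 and Tpi1 -0.0095. For LPS+curcumin against untreated the spike-in values were Hk1 -0.98, Hk3 -0.20, Pfkl -0.63, Pfkp -0.83, Pfkm -0.68, Aldoc -0.66, Eno1 -0.62, Slc16a1 -0.78, Ndrg1 -0.97, Higd1a -0.56, Mxi1 -0.99, Hif1a -0.83, Taldo1 -0.11 and Mpc1 -0.28. On the median scale they were Hk3 -0.0879, Mxi1 -0.88 and Mpc1 -0.16. For LPS+curcumin against curcumin, Edn1 was at -0.38 with normexp. Probes near background limit what their values can show. Examples are those of Egln3, Adm and P4ha2, and those of Edn1, Ldhb, Slc2a3 and Angptl4 on untreated arrays.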

Other observations

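Over all 18112 genes and transcripts read well above background by all 4 arrays of 1 or more slides, 5.96% differed between slides beside the groups (limma moderated F, adjusted p below 0.05, an analysis added after seeing the data). Among the 34 genes these were Egln3 (adjusted p = 0.00407) and Pfkp (adjusted p = 0.043). Egln3 entered that test only through slide 1, where it is high, so its p is no independent support. Pfkp, the platelet phosphofructokinase, had means of 1.57 on slide 1, 1.62 on slide 2 and 2.18 on slide 3.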
